A study of Mus musculus with 3 samples.

Results

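The genes described here carry the symbols of proteins of the cytosolic ribosome and of the mitochondrial ribosome. They were chosen by symbol from the array's own gene names, by a rule that uses no measured value: Rpl and Rps symbols, Rplp0, Rplp1, Rplp2 and Rpsa for the cytosolic group, Mrpl and Mrps symbols for the mitochondrial group. The S6 kinases, whose symbols also begin with Rps, were not included. This gave 156 genes (81 cytosolic, 75 mitochondrial) of 19757 named genes, measured by 260 of 41174 probes (135 cytosolic, 125 mitochondrial).

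RNA came from cultured cells, labelled aortic endothelial cells, of female FVB/N mice aged 12 weeks. One genotype lacked Pim1, a serine/threonine kinase with growth and survival functions, and the other was wild type. RNA was taken 24 h after seeding. On each of 3 arrays, which the labels called biological replicates, the knockout RNA carried Cy5 and the wild-type RNA Cy3, so every value is a log2 ratio of knockout over wild type. Dyes were not swapped, so a dye effect and a genotype effect cannot be told apart. The labels did not say whether animals or wild-type RNA were pooled, so the p-values cover the variation among 3 arrays and no more, and that small number bounds their precision. Errors given with ± are SDs over the 3 arrays.

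Cytosolic ribosomes translate nuclear messages. Each has a small 40S subunit, which reads the mRNA, and a large 60S subunit, which joins the amino acids, and the messages of their proteins usually begin with a run of pyrimidines that ties their translation to the mTORC1 kinase. Mitochondrial ribosomes, with a 28S and a 39S subunit, are built from nuclear-encoded proteins carried into the organelle, and make the few respiratory-chain proteins that mitochondrial DNA encodes. Pim kinases are known to act on cap-dependent translation beside the mTORC1 pathway.

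The measurements rest on 60-base oligonucleotides printed on the arrays. Those of the genes on which the results turn are shown here 5′ to 3′, as the deposited files give them.

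The brightest oligo of Rps13 and the dimmer of the 2 Mrps6 oligos run across the end of the reading frame. Their capitals mark the stop codon, which 27 bases follow in the Rps13 oligo and 6 in the Mrps6 oligo.

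Rps13: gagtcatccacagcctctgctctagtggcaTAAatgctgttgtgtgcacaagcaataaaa

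Mrps6: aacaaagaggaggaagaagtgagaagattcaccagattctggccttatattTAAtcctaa

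The oligos of Rps6 and Mrps27 carry no capitals.

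Rps6: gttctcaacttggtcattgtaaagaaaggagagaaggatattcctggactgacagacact

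Mrps27: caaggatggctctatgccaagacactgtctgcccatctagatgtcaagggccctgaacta

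In the array files' own build (mm8) the Rps13 oligo lies at chr7:116122672-116122731, where the message ends, and the Mrps27 oligo at chr13:100515234-100515293. Cytosolic ribosomal protein genes have many near-identical processed pseudogenes, and hybridisation to these oligos cannot separate their transcripts from those of the parent gene.

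Of the 156 genes, 155 could be tested, 80 cytosolic and 75 mitochondrial. Rpl3l, the muscle-restricted paralog of Rpl3, lay below background in both channels on all arrays, so no ratio is given. Cytosolic ribosomal protein probes were among the brightest on the arrays. Their median lay at the 99.7th percentile of intensity and 76 of the 80 genes were in the top 5%, against 22 of 75 mitochondrial genes, whose median lay at the 92.3rd percentile. None of their spots was saturated.

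**Figure D1:**
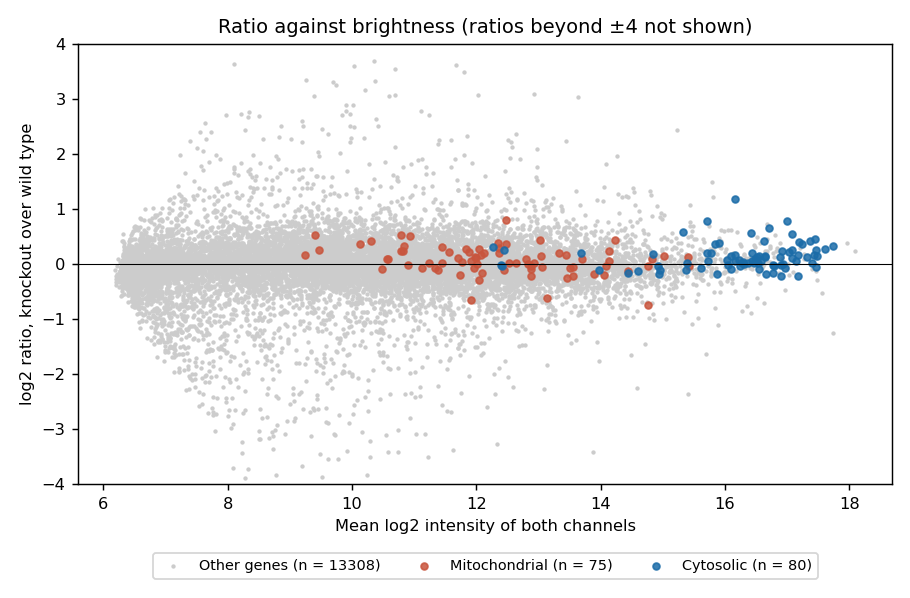
The log2 ratio of knockout over wild type (vertical axis, mean of 3 arrays) is plotted against the mean log2 intensity of both channels (horizontal axis) for tested genes. The most extreme ratios, all of other genes, lie outside the plotted range. The 80 cytosolic genes (blue) cluster at the bright end, the 75 mitochondrial genes (red) spread over the middle and upper range, and both lie close to 0 beside the 13308 other genes (grey).

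Pim1 itself read -0.97, -1.16 and -0.99 on arrays 1, 2 and 3, a mean log2 ratio of -1.04 ± 0.10 (2.05-fold lower, adjusted p = 0.0030). These values are those of 1 of the 2 Pim1 oligos tested, and the other is not given here. With this oligo the knockout RNA still gave a clear Pim1 signal on each of the 3 arrays. The source of that remaining signal was not tested. The labelled cell type was checked against its markers. Of 20 endothelial markers 8 could be tested, and Cdh5, Erg, Pecam1, Sox17 and Tie1, which define endothelium, were not well above background in either channel on any array. In all wild-type samples 7 of the 20 were well above background, and in all knockout samples 6. Of 8 tested, 2 were called higher and 1 lower, with log2 ratios from -0.87 to 2.51 and a median of 0.06. Their summed intensity was 4359 to 5792 in wild type and 7657 to 10800.1 in knockout. Of 13 fibroblast markers, 12 were well above background in all knockout samples and 11 in all wild-type samples. Of 12 tested, 8 were called higher and 1 lower, with a median log2 ratio of 2.05. Their sums, by contrast, overlapped, at 241481 to 323885 in wild type and 270369 to 309765 in knockout. Of 10 mesothelial and epithelial markers tested, 7 were called lower and none higher, with sums of 71822 to 100657 in wild type and 10055 to 14131 in knockout. Of 8 smooth muscle and pericyte markers, 3 were lower and 2 higher, and of 5 macrophage markers 2 were lower. The part of these differences in the ribosomal protein values was not tested. In bulk samples, a change in the mix of cells and a change in RNA per cell cannot be told apart.

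After loess, and by the brightest oligo of each gene, cytosolic ribosomal protein messages moved little and, where they passed the test, moved up. Of 51 further oligos of these genes, 3 were called higher and 2 lower, those of Rpsa and Rpl37. In the knockout, 8 of 80 genes were higher, among them Rps13, Rpl22, Rps3, Rps6, Rpl3, Rpl5 and Rpl7a, and 0 were lower, by limma with an adjusted p under 0.05. That is 10.0% of the group, against 20.1% of the 13463 genes tested, of which 8.68% were higher and 11.4% lower. With median centring in place of loess, which is described further on, the order of these shares turned: 31.2% of the cytosolic group, 25 genes, all higher, against 13.9% of all genes, 7.70% higher and 6.16% lower. At an unadjusted p under 0.05, 16 cytosolic genes were higher and 0 lower. The scanner software's log ratio also gave 0 cytosolic genes lower, with 3 higher, where 18.7% of all genes were called. Among mitochondrial ribosomal proteins 3 of 75 rose (Mrpl17, Mrps27 and Mrpl1) and 3 fell (Mrps6, Mrps14 and Mrps28), 8.0% in all. At an unadjusted p under 0.05 there were 12 mitochondrial genes higher and 3 lower. Of the genes with an adjusted p between 0.05 and 0.1, 4 of 4 cytosolic and 4 of 4 mitochondrial ones were higher. The difference of these shares from that of all genes was not tested. The share of all genes at an unadjusted p under 0.05 was not counted, here or below. Nor was that at an adjusted p between 0.05 and 0.1, so these counts have no background beside them.

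**Figure D2:**
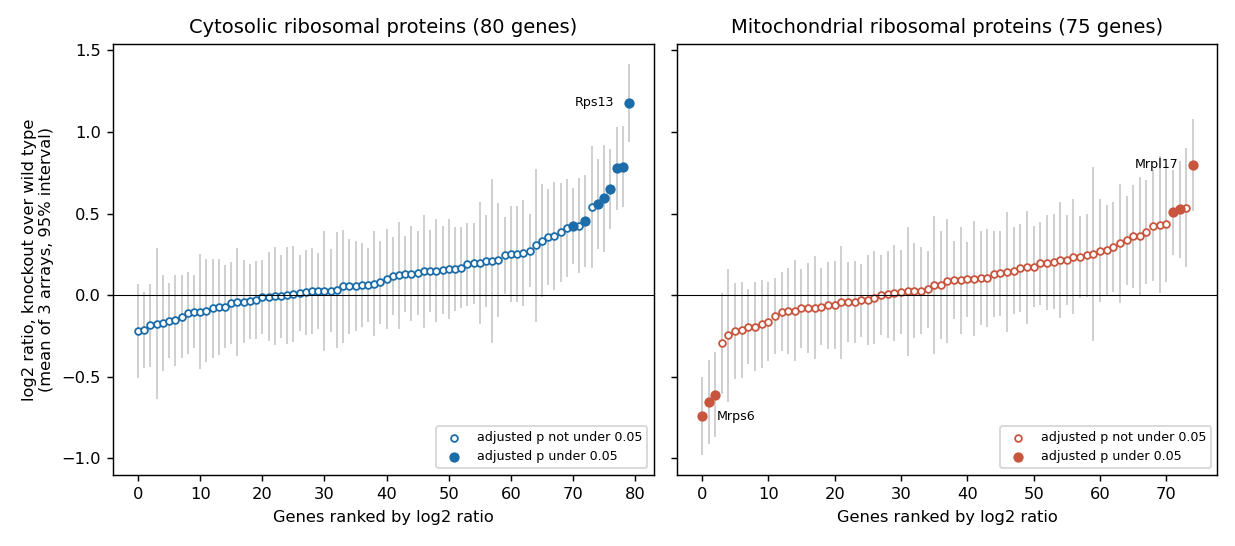
Genes of each group are ranked along the horizontal axis by log2 ratio of knockout over wild type (vertical axis, mean of 3 arrays, bars are 95% intervals of the limma fit). Filled points have an adjusted p under 0.05: 8 cytosolic genes, all above 0, with Rps13 apart from the rest, and 6 mitochondrial genes, 3 at each end.

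After loess, most members stayed close to equal expression. Log2 ratios lay within 0.5 of 0 in 73 of 80 cytosolic genes (91.2%) and 68 of 75 mitochondrial genes (90.7%), against 79.8% of all genes. With median centring these numbers were 43 of 80 (53.8%) and 65 of 75 (86.7%), against 76.6% of all genes, so the cytosolic group was not close to 0 in that setting. With the scanner software's log ratio they were 75 of 80 (93.8%) and 68 of 75 (90.7%), against 69.5% of all genes. In the loess fit the 95% interval lay wholly inside a 2-fold change in either direction for 77 cytosolic and 74 mitochondrial genes. Rps13 was the only member past 2-fold, where 6.94% of all genes were, while with median centring 4 cytosolic genes were. The middle 50% of genes spanned 0.26 log2 units in the cytosolic group, 0.29 in the mitochondrial group and 0.42 among all genes. The highest cytosolic value was 1.18, and the mitochondrial range ran from -0.74 to 0.80.

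Small-subunit proteins of the cytosolic ribosome gave 4 of 32 genes called, all higher. That is 12.5%, beside 20.1% of all genes called and 8.68% called higher. Rps13, a 40S protein that binds 18S rRNA, read 1.19, 1.27 and 1.07 on the 3 arrays, well above 0 on each. Its mean log2 ratio was 1.18 ± 0.10 (SE 0.10, 2.26-fold, adjusted p = 0.0020). A dim second oligo that lists no RefSeq mRNA read 0.87, -0.48 and -0.20, so the change rests on 1 oligo.

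Rps3, which lines the mRNA entry channel, read 0.66, 0.76 and 0.53, a mean of 0.65 ± 0.11 (1.57-fold, adjusted p = 0.013). Its second oligo gave 0.54 ± 0.42 and did not pass, with a low value of 0.08 on array 3. Rps6, the ribosomal substrate of the S6 kinases downstream of mTORC1, read 0.28, 0.70 and 0.80, a mean of 0.59 ± 0.28 (1.51-fold, adjusted p = 0.037). All 3 values were above 0, and array 1 gave less of a rise than the others. The other Rps6 oligo could not be tested.

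Other 40S proteins fixed by name did not pass. Rps19, the protein most often mutated in Diamond-Blackfan anaemia, read -0.39, 0.04 and -0.16. Rpsa, which is also known as a laminin receptor, read -0.71, 0.06 and 0.12, with array 1 apart from the others. A second, dimmer Rpsa oligo read -0.94, -0.49 and -0.48 and was called lower (mean -0.63 ± 0.26, adjusted p = 0.029), so the oligos of this gene did not give 1 answer. Rps20 (0.54 ± 0.34, adjusted p = 0.066) and Rps15a (0.39 ± 0.23, adjusted p = 0.090) lay just outside the threshold. Their dimmer oligos gave 0.12 ± 0.06 for Rps20 and 0.09 ± 0.24 for Rps15a, and neither passed.

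Large-subunit proteins outside the stalk gave 4 of 45 called, all higher. That is 8.89%, beside 20.1% of all genes called and 8.68% called higher. Rpl22, an RNA-binding protein needed for normal T-cell development in mice, read 0.67, 0.92 and 0.78, a mean of 0.79 ± 0.12 (1.73-fold, adjusted p = 0.0074). Its second oligo gave 0.45 ± 0.39 and did not pass. Its paralog Rpl22l1 read -0.10, -0.10 and -0.11, below 0 on all arrays by a small amount, and did not pass (adjusted p = 0.50). The difference between the 2 paralogs was not tested.

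Rpl3, which sits near the peptidyl transferase centre, read 0.35, 0.68 and 0.64, a mean of 0.56 ± 0.18 (1.47-fold, adjusted p = 0.027). Rpl7a read 0.35, 0.42 and 0.49 with its brightest oligo, a mean of 0.42 ± 0.07 (1.34-fold, adjusted p = 0.036). Its other oligos gave 0.23 ± 0.08 and 0.07 ± 0.11 and did not pass, so the size of its change differed between oligos. The mean of its 3 oligos was 0.24, no longer called (adjusted p = 0.13).

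Rpl5 and Rpl11 bind 5S rRNA together, and outside the ribosome they bind Mdm2, the ubiquitin ligase of p53. Rpl5 read 0.27, 0.67 and 0.43, a mean of 0.46 ± 0.20 (1.37-fold, adjusted p = 0.049), the called gene nearest the threshold. Rpl11 read 0.22, 0.41 and 0.64, a mean of 0.42 ± 0.21 (adjusted p = 0.063), just outside it. Both were above 0 on all arrays.

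The stalk proteins recruit elongation factors to the 60S subunit. Rplp0 read -0.25, 0.36 and 0.06, Rplp1 -0.11, 0.26 and 0.49 and Rplp2 0.16, 0.46 and 0.61, and 0 of 3 passed. The Rplp0 oligo was printed 10 times on each array, and its spots varied with SDs of 0.015, 0.017 and 0.041. Rplp0 is often used as a reference gene, as are Rpl13a and Rps18. Rpl13a read 0.41, 0.59 and -0.37 and Rps18 0.10, 0.42 and -0.05, and neither passed (adjusted p = 0.54 and 0.44).

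**Figure D3:**
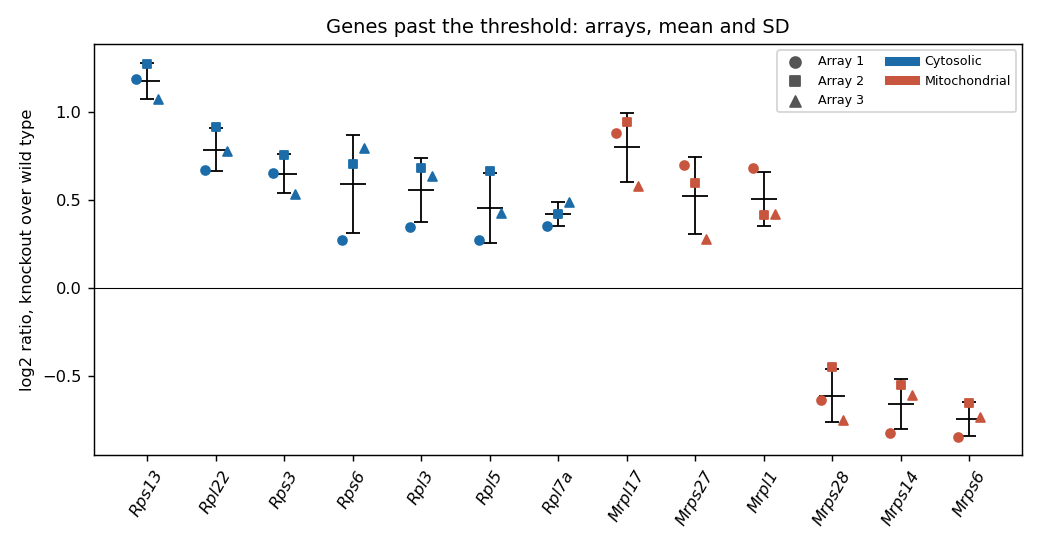
Log2 ratios of knockout over wild type (vertical axis) are shown for 13 of the 14 called genes (horizontal axis), with 1 symbol per array, the mean as a dash and the SD over 3 arrays as bars. All arrays of a gene lie on the same side of 0, and 5 of the 7 cytosolic genes shown are lowest on array 1, Rps13 and Rps3 being lowest on array 3.

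Paralog pairs were compared as well. Rpl7 read 0.15, 0.32 and 0.26 (adjusted p = 0.15). Its nucleolar relative Rpl7l1 read 0.51, 0.14 and 0.12 with the brightest oligo, which did not pass (adjusted p = 0.21), while a dimmer one read 0.73, 0.55 and 0.33 and was called higher (mean 0.53 ± 0.20, adjusted p = 0.033). Rps27 and its p53-responsive paralog Rps27l gave means of 0.05 ± 0.19 and -0.08 ± 0.23. Rpl10l was not analysed here. Of the relatives outside the symbol rule, Rps4l gave -0.21 ± 0.30 and Rpl36al 0.20 ± 0.19, and Rpl39l could not be tested.

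Members on the X chromosome did not pass. Rps4x, an essential 40S protein, gave 0.10 ± 0.24, Rpl10 0.08 ± 0.14, Rpl36a 0.03 ± 0.32 and Rpl39 -0.04 ± 0.06. The brightest Rpl10 oligo carries a coordinate on chromosome 13 in the array files, while the gene is X-linked. Within 20 Mb of Pim1 on chromosome 17 lay 14 tested members, among them Rpl10a, Rps10, Rps18, Rps28 and Mrps18b, and 0 were called. Their log2 ratios ran from -0.22 (Mrps10) to 0.25 (Rpl7l1), with a median of 0.12. Of the 454 genes tested in that window without Pim1, these members included, 18.5% were called.

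By the brightest oligo of each gene, the called falls of both groups were all in genes with Mrps symbols. These were counted as small-subunit proteins by symbol alone. Of 29 such genes tested, 1 rose and 3 fell, or 13.8%, beside 20.1% of all genes called and 11.4% called lower. Mrps6, a small-subunit protein of bacterial ancestry, read -0.84, -0.65 and -0.73 with its brightest oligo, a mean of -0.74 ± 0.10 (1.67-fold lower, adjusted p = 0.0079). Its other oligo, shown above, read -0.87, -0.54 and -0.62 and was also called (mean -0.68 ± 0.17). Each array was below 0 with both oligos.

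Mrps14, of bacterial ancestry too, read -0.82, -0.55 and -0.60, a mean of -0.66 ± 0.14 (1.58-fold lower, adjusted p = 0.014). Mrps28 read -0.63, -0.45 and -0.75, a mean of -0.61 ± 0.15 (1.53-fold lower, adjusted p = 0.018). Mrps27, a pentatricopeptide-repeat protein that has no bacterial counterpart, went the other way at 0.70, 0.60 and 0.28, a mean of 0.53 ± 0.22 (1.44-fold higher, adjusted p = 0.038). It was dim for the group, at the 73.9th percentile of intensity. These 3 falls and this rise lay on the same side of 0 on all arrays.

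Mrps11 (0.53 ± 0.33, adjusted p = 0.063) lay just outside the threshold, with 0.79, 0.65 and 0.16 on the 3 arrays. Mrps12, whose bacterial relative sets decoding accuracy, gave -0.07 ± 0.09. The 3 Mrps18 paralogs occupy different places on the mitochondrial ribosome. Mrps18a gave 0.06 ± 0.28, Mrps18b 0.25 ± 0.55 and Mrps18c -0.16 ± 0.11, and none passed.

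Genes with Mrpl symbols, counted as large-subunit proteins by symbol alone, gave 2 of 46 called, both higher. That is 4.35%, beside 20.1% of all genes called and 8.68% called higher. Mrpl17 read 0.88, 0.94 and 0.58, a mean of 0.80 ± 0.20 (1.74-fold, adjusted p = 0.010), the highest value of the mitochondrial group. The other Mrpl17 oligo could not be tested. Mrpl1, the protein of the stalk beside the exit site, read 0.68, 0.41 and 0.42, a mean of 0.51 ± 0.15 (1.42-fold, adjusted p = 0.030). Its other oligos gave 0.38 ± 0.22 and -0.26 ± 0.17, neither called, so they did not share a direction. Mrpl12, which also binds the mitochondrial RNA polymerase, read 0.45, 0.10 and -0.36, with a different sign on array 3. Mrpl37 (0.43 ± 0.29), Mrpl47 (0.34 ± 0.17) and Mrpl23 (0.43 ± 0.32) had adjusted p values of 0.092, 0.095 and 0.099. A dimmer Mrpl47 oligo that lists no RefSeq mRNA read -0.20, -0.35 and -0.47 (mean -0.34 ± 0.13, adjusted p = 0.078). The oligos of Mrpl47 thus did not share a direction.

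The overall shifts of the cytosolic and mitochondrial groups differed by less than the spread over the 3 arrays after loess. The median over cytosolic genes was 0.0005, 0.23 and 0.11 on arrays 1, 2 and 3, a mean of 0.11 ± 0.11 (n = 3). Over mitochondrial genes it was 0.17, 0.12 and -0.10, a mean of 0.06 ± 0.14 (n = 3). The median over all genes stayed near 0, at -0.04, -0.0003 and -0.02.

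The cytosolic median minus the mitochondrial one was -0.16, 0.11 and 0.21, a mean of 0.05 ± 0.19 (n = 3), smaller than its spread. On array 1 the mitochondrial group was the higher, and on arrays 2 and 3 the cytosolic group. The mean of the difference was below 0 in 2 of 16 alternative settings, at -0.04 with the software's own log ratio and -0.03 without replicate 3. It was larger than its spread in 2 others, at 0.23 ± 0.17 with median centring and 0.16 ± 0.07 without replicate 1 (SD, n = 2). With 3 arrays no exact test of the difference can reach significance, and none is given.

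**Figure D4:**
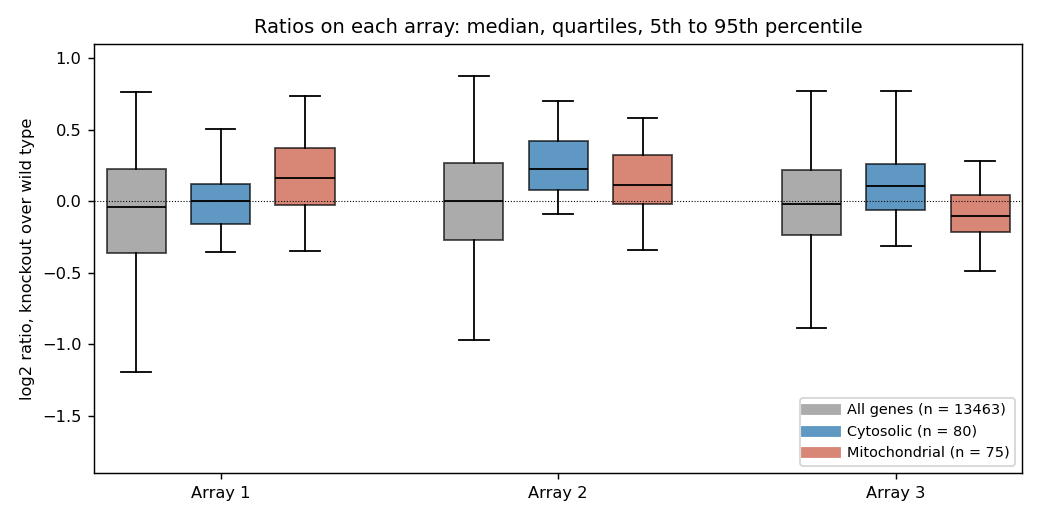
Box plots show log2 ratios of knockout over wild type (vertical axis) on each array for all 13463 genes (grey), the 80 cytosolic (blue) and the 75 mitochondrial genes (red), with median, quartiles and whiskers from the 5th to the 95th percentile. The red box lies above the blue on array 1 and below it on arrays 2 and 3.

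Signs were also counted over the arrays. All 3 arrays were above 0 for 27 cytosolic genes (33.8%) and below 0 for 5 (6.25%). For mitochondrial genes these counts were 21 (28.0%) and 12, and among all genes 24.4% and 29.6%. Across genes, ratios on arrays 1 and 2 correlated at r = 0.77 in the cytosolic group and 0.66 in the mitochondrial group, those on arrays 1 and 3 at 0.48 and 0.53, and those on arrays 2 and 3 at 0.66 and 0.76. Over all tested probes the values were 0.68, 0.70 and 0.91. The cytosolic group thus lay above all probes for arrays 1 and 2 and below them for the other pairs. Genes on an array share their RNA and dyes and are not replicates, so these are descriptions.

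The number of calls rested on arrays 2 and 3. Without replicate 1 the test called 22 cytosolic genes, all higher, and 13 mitochondrial genes, 7 higher and 6 lower, but it then also called 41.6% of all genes. Without replicate 2 or without replicate 3 it called 1 cytosolic gene, Rps13 in each case, and 0 mitochondrial genes, with 4.97% and 4.70% of all genes called. At an unadjusted p under 0.05 those fits still gave 3 mitochondrial genes higher and 3 lower without replicate 2, and 12 higher and 3 lower without replicate 3. All 14 called genes kept their sign in each of these.

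Normalisation moved the level of the cytosolic group. Loess centres ratios at each intensity, and cytosolic ribosomal proteins sit at the bright end. Fitted without any ribosomal protein probe, it moved their median only from 0.11 to 0.13. With median centring, which removes no trend with intensity, the medians were 0.50 for cytosolic and 0.27 for mitochondrial genes, with 25 cytosolic and 3 mitochondrial genes higher and 0 lower in either (at an unadjusted p under 0.05, 62 cytosolic and 24 mitochondrial genes were higher, 0 and 3 lower). Calls over all genes then split 55.5% higher, against 43.1% after loess. The median of all genes rose by 0.11 in that setting, to 0.09, and relative to it the group medians were 0.41 and 0.18. Mrps6, Mrps14 and Mrps28 kept their sign but not their call, at -0.44, -0.49 and -0.39. Without a dye swap, an intensity-dependent dye effect and a rise of the brightest messages cannot be told apart.

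Where a gene had more than 1 tested oligo, the others were set against the brightest. In the cytosolic group 37 of 51 further oligos (39 genes) had the same sign, with a median absolute difference of 0.13. In the mitochondrial group 24 of 42 (28 genes) did, with a median difference of 0.12. Oligos of called cytosolic genes had the same sign in 7 of 7 cases. A dim oligo of Rpl37, a 60S protein whose brightest oligo gave 0.15 ± 0.13, was called lower at -0.42 ± 0.11. For called mitochondrial genes it was 2 of 3, with 1 called. The share of all tested probes called was 17.1%.

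**Figure D5:**
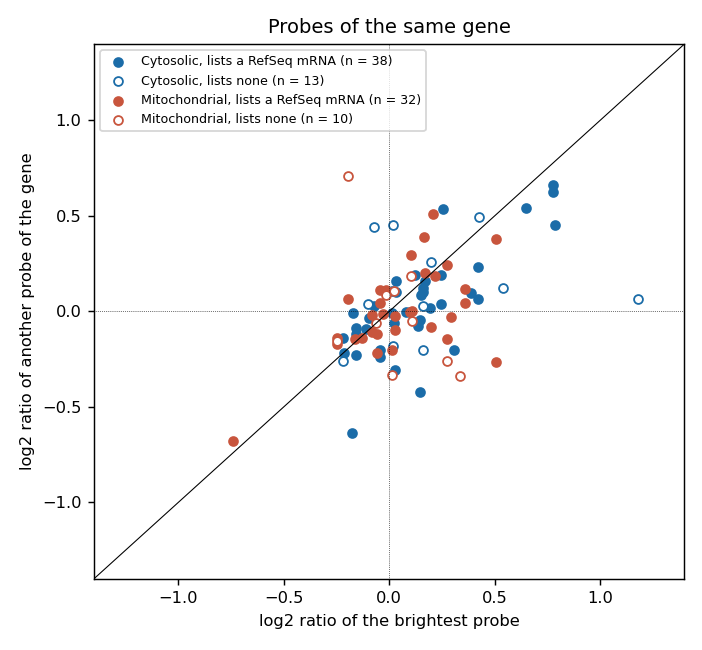
The log2 ratio of each further oligo of a gene (vertical axis) is plotted against that of its brightest oligo (horizontal axis), for 51 cytosolic (blue) and 42 mitochondrial oligos (red); open symbols list no RefSeq mRNA and the line marks equality. The open blue point far below the line is the second oligo of Rps13, which differs by 1.11.

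A run of pyrimidines at the start site was looked for in RefSeq promoters (GRCm38.p6), in the 30 bases from 10 before to 20 from the annotated start. Rps6 (chr4:86857348-86857377, minus strand) and Rpl7a (chr2:26910797-26910826, plus strand) hold one, and Mrps27 (chr13:99344776-99344805, plus strand) a shorter one. Capitals mark the longest run of C and T on the gene's strand, of 10, 17 and 6 bases.

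Rps6 start site: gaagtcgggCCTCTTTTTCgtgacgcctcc

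Rpl7a start site: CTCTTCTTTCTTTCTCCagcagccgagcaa

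Mrps27 start site: cccgCCTTCCacttggtgcgctccaagatg

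At least 8 pyrimidines in a row on the gene's strand stood in 24 of the 60 cytosolic genes in that table, in 6 of 66 mitochondrial genes (9.09%) and in 13.0% of 27025 genes in all. Only that strand was searched. In the cytosolic group, 2 genes with a run and 4 without one were called, and the median log2 ratios were 0.06 and 0.11. Annotated starts can be off by some bases, so a run may be missed, and a match is not proof of a working element.

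Few of the factors that build cytosolic ribosomes passed the test. Of 81 ribosome biogenesis genes, all tested, 2 rose and 2 fell, 4.94% beside 20.1% of all genes. Emg1, an 18S rRNA methyltransferase (0.49 ± 0.17), and Ddx47, an RNA helicase (0.46 ± 0.05), were higher. Sbds, which helps free new 60S subunits (-0.54 ± 0.13), and Imp3 of the U3 snoRNA complex (-0.46 ± 0.17) were lower. The list's median was 0.57 on array 1 but -0.23 and -0.14 on arrays 2 and 3, a wider split between arrays than that of either ribosomal protein group.

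Of 45 cytosolic translation factors tested, 4 rose and 1 fell, 11.1% and thus a lower share than the 20.1% of all genes. Eif4g3, a scaffold of cap-dependent initiation, rose (0.78 ± 0.16), as did Eif4b, a helicase cofactor (0.54 ± 0.23), while Eif2s3x, a subunit of eIF2 encoded on the X chromosome, fell (-0.86 ± 0.27). Of 19 other messages known to start with a pyrimidine tract, 2 rose, Eif4b and Eif3f (0.52 ± 0.19), and 0 fell, 10.5% of that list. The lists of factors and of such messages share genes.

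In the mTORC1, S6 kinase and Myc list 1 of 23 rose and 2 fell, 13.0% against 20.1% of all genes. Max, the partner of Myc, was higher (0.39 ± 0.04), and Eif4ebp2, a repressor of cap-dependent translation (-0.43 ± 0.06), and Rheb, the activator of mTORC1 (-0.40 ± 0.03), were lower.

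Mitochondrial translation also needs its own factors, tRNA synthetases and assembly proteins. Of 39 such genes tested, 10 rose and 1 fell, 28.2% beside 20.1% of all genes. Vars2, the mitochondrial valyl-tRNA synthetase, read 0.78, 0.77 and 0.77 (1.71-fold, adjusted p = 0.0057), almost the same on every array. Nsun4, a methyltransferase of mitochondrial rRNA that acts in ribosome assembly, rose by 0.78 ± 0.11 and Ears2, the glutamyl-tRNA synthetase, by 0.71 ± 0.11. The list's median was 0.22, 0.15 and 0.02 on the 3 arrays.

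Mitochondrial ribosome subunits that carry other names were few: of 6 tested, 1 was higher, Aurkaip1 (0.54 ± 0.28, adjusted p = 0.048), while Dap3 gave 0.17 ± 0.24. Of 14 regulators of mitochondrial biogenesis, 2 rose and 1 fell, a share of 21.4%, close to the 20.1% of all genes. Ppargc1a, a transcriptional coactivator of mitochondrial genes, was lower (-0.89 ± 0.11), and Ppargc1b (0.50 ± 0.20) and Tfb1m, an rRNA dimethyltransferase (0.55 ± 0.18), were higher.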

How the data were processed

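The deposited scanner files held mean signal intensity and median local background intensity in both channels at 45018 spots per array, and, per the file headers, the log10 of red divided by green. The software was Agilent Feature Extraction 9.5.3.1, per the submitters' processing notes. The deposited value table held the same log10 values (largest difference 0), so its scale and direction are known; the median of each of its columns was 0. All 3 arrays lay on 1 slide.

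Here the background correction was normexp with an offset of 50, then log2 ratios were loess-normalised array by array, with control and outlier-flagged spots at weight 0. Spots of 1 probe were averaged. A probe was tested where 1 channel lay well above background on at least 2 of 3 arrays. Per array, 53.9% to 57.2% of probes lay well above background in knockout and 58.4% to 62.6% in wild type. A mean log2 ratio of 0 was the null of the limma test (lmFit and eBayes, limma 3.58.1, R 4.3.3), with Benjamini-Hochberg adjustment over 25080 probes, at 0.05. The pipeline was tested on simulated data. Each gene took the value of its brightest tested probe, leaving out the 253 probes against their gene's strand. Probe names were updated through RefSeq (33113 of 41174 probes named). Coordinates of oligos are mm8, per the file headers, and start-site windows GRCm38.p6.

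Members and lists were chosen with earlier results of these data known. Called genes were few enough that the rule takes them all; some genes are not reported here, and the other names follow a list set with the design, which also took up to 3 called genes of each related list by size of change. Genes just outside the threshold, Rpl13a, Rpl37, Rpl4, Ddx47, Dap3 and the relatives outside the symbol rule were chosen after their values were seen. Lists are described by counts and medians, without tests.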

Additional observations from a re-analysis of the deposited data

How the results depend on the processing

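Settings were changed one at a time, 16 in all, of which probes that list a RefSeq mRNA was chosen after seeing the data. The cytosolic median stayed above 0 in each (0.04 to 0.50), as did the mitochondrial one (0.01 to 0.27), and no called gene changed sign. The 8 cytosolic calls became 25 with median centring (median 0.50), 3 with the software's log ratio, 15 with array weights and 3 at an adjusted p under 0.01, and 1 to 22 when 1 replicate was left out. These were 31.2%, 3.75%, 18.8% and 3.75% of the group, beside 13.9%, 18.7%, 33.6% and 7.13% of all genes in the same settings, so of these 4 the share lay above that of all genes with median centring alone. The 6 mitochondrial calls became 3 with median centring (median 0.27), 1 at an adjusted p under 0.01, and 0 to 13 when 1 replicate was left out. The cause was not tested. Of the 14 called genes, 14 kept their call with no background subtraction, with scaling between arrays, with trend and robust variances and with array weights, 13 with loess fitted without ribosomal protein probes, 11 with offset 0 and with no filter, 7 with the software's log ratio and 1 without replicate 2 or 3. Array weights were 0.40, 1.22 and 2.04. No separate paired analysis was run, because both genotypes share each array and the test of the ratio is already paired by array. Depth limits dim probes: the offset pulls their ratios towards 0, but the cytosolic members are bright.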

Other observations

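Several of the called cytosolic genes carry small nucleolar RNA genes, which guide rRNA modification, within their bounds in the RefSeq annotation (GRCm38.p6). This split was made after the values were seen and is given without a test. Of 30 cytosolic members with such a gene, 6 were called, all higher, among them Rps13, Rps3 and Rpl3. That is 20.0%, about the share of all genes called (20.1%). Of 50 without one, 2 were called, Rpl22 and Rps6, or 4.0%. The median log2 ratio of the hosts was -0.02, 0.30 and 0.14 on arrays 1, 2 and 3, and that of the others 0.01, 0.20 and 0.05, so the hosts were the higher on arrays 2 and 3 and not on array 1. Among hosts without a call Rpl4, which holds 5 annotated small nucleolar RNA genes, gave -0.13 ± 0.14.

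Arbp is an older name of Rplp0, and 2 probes under it fell outside the symbol rule. One gave -0.002 ± 0.34 and the other 0.42 ± 0.25, and neither was called. Mrpl42, Mrpl57 and Mrpl58, also outside the rule by their names in the files, gave -0.05 ± 0.08, -0.25 ± 0.17 and -0.06 ± 0.24, with none called.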
